A study of Mus musculus with 12 samples.

Results

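The complement components described here are 9 mouse genes, chosen by name, that cover the start of the classical pathway (*C1qa*, *C1qb*, *C1qc*, *C1ra* and *C4b*), the central component *C3*, the alternative pathway factor *Cfb* and the inhibitors *Serping1* and *Cd55*. All probes whose RefSeq accession belonged to one of these genes were taken, which gave 12 probes among the 55681 of the array (9 of 20887 named genes), with 2 each for *C1ra*, *C3* and *Serping1* and 1 each for the others. Of these, 11 probes of 8 genes were expressed, meaning that the scanner software called them well above background for 1 condition on 3 or 4 arrays within some comparison, as were 29361 of all probes. *Cfb* was the gene that did not pass.

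RNA came from neurospheres, floating aggregates of neural progenitor cells, which were grown from the telencephalon of C57BL/6 mouse embryos at day 13, attached and differentiated for 7 days without growth factors. WT neurospheres carried no transgene. APP_WT, BK_APP and HOE_APP neurospheres came from APPswe/PS1dE9 embryos, which carry mutated human amyloid precursor protein and presenilin 1 transgenes under the prion protein promoter, a model of familial Alzheimer's disease. APP_WT was untreated, BK_APP received 1 µM bradykinin (BK), the peptide agonist of the B2 kinin receptor, and HOE_APP received 1 µM HOE-140, a peptide antagonist of the same receptor, each on days 0, 3 and 6 of differentiation. Every array carried 2 conditions, with 4 arrays for each of 3 comparisons (APP_WT with WT, and BK_APP or HOE_APP with APP_WT) and with the dyes swapped on 2 of the 4. The design counts 4 APP_WT replicates in all, so the 3 comparisons were taken to share their APP_WT samples, though the labels do not say so for each array. No WT neurosphere was treated. On the arrays with HOE-140 the same treatment is given for the red and for the green channel. The direction of all HOE_APP values given below, which is that of the log2 ratios the authors deposited, is therefore likely only.

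Complement is a cascade of plasma and cell surface proteins. In the classical pathway the hexameric recognition molecule C1q, built from A, B and C chains, activates the proteases C1r and C1s, which cleave C4 and C2 and so lead to cleavage of C3. The alternative pathway amplifies C3 cleavage through factor B, and both end in C5 and the membrane attack complex. In the brain, C1q is made mainly by microglia and C3 largely by reactive astrocytes and microglia, and both are known for tagging synapses for removal. C1 inhibitor, the product of *Serping1*, blocks C1r and C1s and also plasma kallikrein, the protease that releases BK from kininogen, whereas CD55 speeds the decay of C3 convertases on the cell surface.

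The median spot signal of an array was 63 to 94.5 in the green and 89.5 to 117.5 in the red channel, and 45.2% to 60.1% of the spots were well above background. The 4 arrays with WT and the 8 with BK_APP or HOE_APP came from different slides, so that slide and contrast cannot be told apart, but both conditions of a ratio lay on the same array. Ratios of arrays with the same dye orientation correlated positively over all expressed probes in each comparison (r of 0.24 to 0.61), while those of opposite orientation correlated negatively in both treated comparisons (r of -0.11 to -0.32). The model held a dye coefficient for each comparison. The mouse *App* probe, which checks the human transgene only as far as it binds its RNA, had log2 ratios of 0.23, 0.27, 0.00 and -0.03 on the 4 arrays of APP_WT versus WT (0.12 ± 0.04, SE, limma adjusted p = 0.0925). The probe of *Prnp*, the prion protein gene, had 0.59, 0.59, 1.57 and 0.25 on the same arrays (0.75 ± 0.15, SE, limma adjusted p = 0.00581). Whether it binds transgene RNA was not tested.

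In APP_WT neurospheres all 8 expressed complement genes exceeded their WT levels. By the brightest probe of each gene, *C3* rose 18.0-fold (8.78-fold with its other probe), *C1qa* 4.21-fold, *C1qc* 4.19-fold, *C4b* 2.90-fold, *C1qb* 2.62-fold, *C1ra* 2.59-fold (2.01-fold with its other probe), *Serping1* 2.42-fold (1.79-fold with its other probe) and *Cd55* 1.42-fold. Each passed the threshold in limma with Benjamini-Hochberg adjustment over the 29361 expressed probes, of which 11.6% were called higher and 18.5% were called in either direction. The levels of the 2 conditions did not overlap for any of these 8 genes, compared to 6.69% of all expressed probes with non-overlapping levels and APP_WT the higher. The median log2 fold change of the 8 genes was 1.46, against 0.00 for all expressed probes. The median of the 8 genes was 2.45 in the deposited log2 ratios and 2.51 with the processed signals of the scanner software. It was 1.63 without background correction and 1.42 with median centering in place of loess. Among 14330 expressed genes with a name, ranked from the highest log2 fold change, *C3* was second, *C1qa* 28, *C1qc* 29, *C4b* 61, *C1qb* 84, *C1ra* 89, *Serping1* 112 and *Cd55* 793. The genes were chosen with earlier results of these data known, so these shares and ranks describe the set and do not test it. Because these are bulk samples, more cells of a type and more RNA per cell cannot be told apart.

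**Figure D1:**
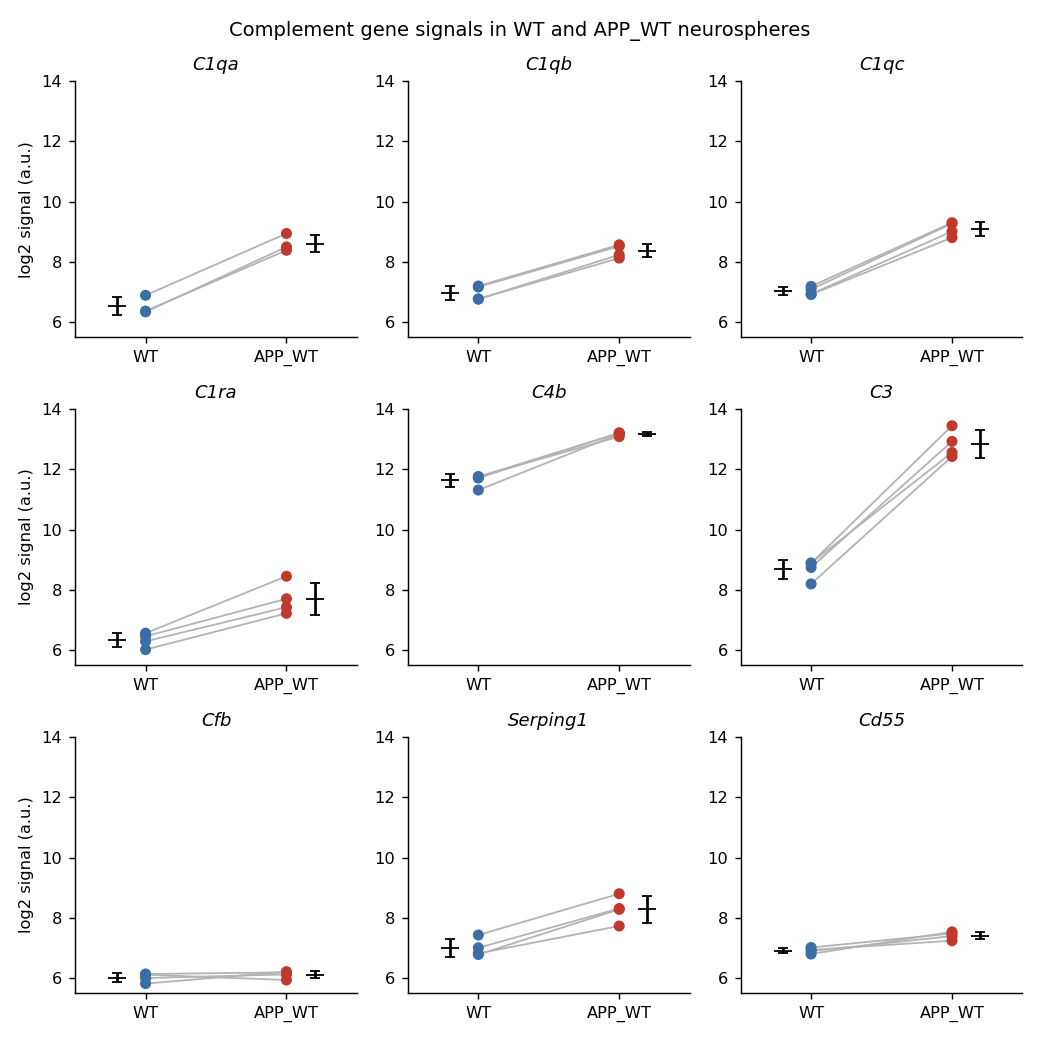
Log2 signal (arbitrary units) of the 9 genes in WT and APP_WT neurospheres, with 1 line for each array and the mean ± SD beside the points. *C3* rose most, from a mean of 8.68 to 12.84, the 8 expressed genes were separated between the conditions, and *Cfb* stayed near 6 in both.

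The C1q chains moved together. The genes for the 3 chains are direct neighbors on mouse chromosome 4 in the RefSeq annotation of GRCm38.p6, in the order *C1qb*, *C1qc*, *C1qa*. The stretches of 250 bases before the start of *C1qb* (chr4:136886201-136886450, minus strand) and *C1qc* (chr4:136892915-136893164, minus strand), from RefSeq on GRCm38.p6, are shown because these genes rose together. Capitals mark matches to GAGGAA, the core of the sites that the myeloid factor PU.1 binds, searched on both strands.
C1qb: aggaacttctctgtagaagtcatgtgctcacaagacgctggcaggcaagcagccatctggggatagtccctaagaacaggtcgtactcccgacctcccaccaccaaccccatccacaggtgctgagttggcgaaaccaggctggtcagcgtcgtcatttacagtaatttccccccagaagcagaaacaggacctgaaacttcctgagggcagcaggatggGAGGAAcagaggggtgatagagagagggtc
C1qc: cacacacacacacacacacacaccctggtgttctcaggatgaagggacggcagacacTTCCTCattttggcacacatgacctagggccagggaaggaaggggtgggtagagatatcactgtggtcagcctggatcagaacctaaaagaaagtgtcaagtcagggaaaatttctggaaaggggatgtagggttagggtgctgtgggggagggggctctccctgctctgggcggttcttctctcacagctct
One match lay at positions -30 to -25 from the start of *C1qb* on its own strand, and one at -193 to -188 from that of *C1qc* on the opposite strand, so that it reads TTCCTC in the printed line. The motif was present on either strand in 23.3% of the 32851 promoters of the table, so that it is common in stretches of this length. No match to TTCNNNGAA (the site of STAT factors), an interferon response element, an NF-kB site or TTNNGCAA (C/EBP) was found in either stretch, against 7.02%, 2.98%, 1.41% and 9.56% of all promoters. *C1qa* had no entry in the table.

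*C1qa*, the A chain, had log2 signals of 6.34, 6.36 and 6.89 in WT and of 8.50, 8.38 and 8.94 in APP_WT on arrays 1 to 3. Its spot on array 4 was uneven and the fit left it out. Both conditions tracked each other from array to array, and the log2 ratios were 2.16, 2.02 and 2.05 (2.07 ± 0.10, SE, limma adjusted p = 1.21e-06). In WT the probe was well above background on 2 of 4 arrays, in APP_WT on 4.

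*C1qb*, the B chain, had log2 signals of 6.76, 6.76, 7.16 and 7.20 in WT and of 8.23, 8.12, 8.52 and 8.57 in APP_WT. The 4 log2 ratios of 1.47, 1.36, 1.36 and 1.37 were the least spread of the 8 genes (1.39 ± 0.08, SE, limma adjusted p = 1.01e-06). *C1qc*, the C chain, whose probe is printed 10 times on the array, had ratios of 2.08, 1.89, 2.12 and 2.18 (2.07 ± 0.07, SE, limma adjusted p = 7.02e-08). Its log2 signal was 6.91 to 7.18 in WT and 8.80 to 9.30 in APP_WT. The A and C chains thus had ratios above those of the B chain on every array that measured them, although probes differ in their response.

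The next steps of the classical pathway were also higher. *C1ra*, which encodes the protease C1r, did not reach the well-above-background call in WT (0 of 4 arrays), with log2 signals of 6.28, 6.01, 6.45 and 6.56, and was well above it on all 4 APP_WT arrays, with 7.42, 7.22, 7.70 and 8.45. Its log2 ratios were 1.14, 1.21, 1.25 and 1.89 (1.37 ± 0.14, SE, limma adjusted p = 6.66e-05), and with this probe the mean of APP_WT was at least 2.59-fold higher. Array 4 stood apart from the others. The other *C1ra* probe gave ratios of 0.97, 0.85, 0.93 and 1.29 (1.01 ± 0.13, SE, limma adjusted p = 0.000587).

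*C4b*, which encodes the C4 component cleaved by C1s, was brightly expressed in both conditions, with log2 signals of 11.71, 11.31, 11.75 and 11.76 in WT and of 13.21, 13.18, 13.21 and 13.09 in APP_WT. Its ratios were 1.50, 1.86, 1.46 and 1.33 (1.54 ± 0.06, SE, limma adjusted p = 1.35e-07). No probe was assigned to its close paralog *C4a*, and RNA of both genes may bind this probe.

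*C3*, on which all pathways converge, showed the widest difference of the 9 genes. Log2 signals were 8.89, 8.74, 8.19 and 8.88 in WT and 12.56, 12.93, 12.43 and 13.45 in APP_WT, and the probe was well above background on all arrays in both. The log2 ratios of 3.67, 4.19, 4.24 and 4.57 gave 4.17 ± 0.14 (SE, limma adjusted p = 5.44e-08, 10 spots on the array). A second *C3* probe with 1 spot gave 2.82, 3.34, 2.96 and 3.42 (3.13 ± 0.14, SE, limma adjusted p = 2.3e-07), so that the probes gave the same direction and different sizes.

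The 250 bases before the start of *C3* (chr17:57228137-57228386, minus strand, GRCm38.p6, RefSeq) are given because *C3* had the largest change. Capitals mark the match to TTNNGCAA, the letters used for C/EBP sites, at positions -45 to -38 from the start and on the opposite strand, so that it reads TTGCGAAA in the printed line.
C3: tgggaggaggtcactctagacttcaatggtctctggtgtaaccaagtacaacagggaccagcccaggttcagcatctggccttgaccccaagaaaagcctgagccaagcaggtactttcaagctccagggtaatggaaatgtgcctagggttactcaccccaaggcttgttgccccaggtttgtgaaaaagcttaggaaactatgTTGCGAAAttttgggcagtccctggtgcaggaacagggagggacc
This stretch held no match to GAGGAA or to the letters used for STAT, interferon response and NF-kB sites. The stretches before *C1ra* and *Cd55* held no match to any of the 5 motifs.

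*Cfb*, the alternative pathway protease precursor, was not measurably expressed. Its probe was not well above background on any array in WT, APP_WT, BK_APP or HOE_APP, with mean log2 signals of 6.01 ± 0.15 in WT and 6.11 ± 0.13 in APP_WT (SD, n = 4). Its ratios were -0.18 to 0.40 in APP_WT versus WT, -0.12 to 0.24 in BK_APP and 0.00 to 0.20 in HOE_APP, and they are differences between signals at background. Of the other alternative pathway genes, *Cfd* (factor D) was also not expressed, and *Cfp*, properdin, was expressed with a log2 fold change of 0.05 ± 0.08 (limma adjusted p = 0.73). The alternative pathway was thus represented in these arrays by *C3* and *Cfp*.

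Both inhibitors were higher in APP_WT as well, with smaller differences than *C3*. *Serping1* had log2 signals of 6.78, 6.81, 7.00 and 7.42 in WT and of 8.28, 7.72, 8.31 and 8.80 in APP_WT. Its ratios were 1.50, 0.91, 1.31 and 1.37 (1.27 ± 0.16, SE, limma adjusted p = 0.000265), and those of its other probe were 0.88, 0.50, 0.91 and 1.08 (0.84 ± 0.09, SE, limma adjusted p = 8.27e-05). Replicate 2 was the lowest with both probes.

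*Cd55* had log2 signals of 6.93, 6.89, 7.01 and 6.79 in WT and of 7.24, 7.39, 7.48 and 7.53 in APP_WT, without overlap. The ratios were 0.31, 0.50, 0.47 and 0.74 (0.50 ± 0.11, SE, limma adjusted p = 0.00859). Without replicate 4 the value was 0.43 and the adjusted p 0.0642, so the call for *Cd55* rested on that array. The sizes given for the dim probes depend on the background correction. With the processed signals of the scanner software the log2 fold change of *C1ra* was 3.61, that of *C1qa* 3.54, that of *C1qc* 2.97, that of *C1qb* 2.06, that of *Serping1* 1.93 and that of *Cd55* 1.00, while *C4b* (1.60) and *C3* (4.54) moved little, and 8 of the 8 genes were called.

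By the root mean square difference of the log2 ratios over the arrays, among 14144 named expressed genes, *C1qa* was most like *Tlr2* (0.168), *Aif1* (0.170) and *Fcer1g* (0.187) over 11 arrays. For *Serping1* the nearest genes over 12 arrays were *S100a4* (0.164), *Tmem140* (0.191) and *Tgm2* (0.205). *C3* had no neighbor as close, with *Cxcl10* (0.292), *Rtp4* (0.635) and *Oasl2* (0.720) as the nearest. The distance is not scaled to the size of the ratios, so that a gene with ratios as large as those of *C3* has few others near it. *Cxcl10*, an interferon-induced chemokine, had a log2 fold change of 4.50 in APP_WT versus WT, against 3.12 for *Rtp4* and 3.05 for *Oasl2*. These are descriptions of the array ratios, which were taken to share the APP_WT samples.

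Of 48 other complement genes, 47 had a probe and 23 were expressed. In APP_WT versus WT, 8 of the 23 were called higher and 1 lower, against 11.6% of all expressed probes called higher and 18.5% called in either direction. The median log2 fold change of the 23 was 0.14. Among the genes of classical and lectin initiation, 2 of 6 passed, namely *C1s1* (0.94 ± 0.16, SE, limma adjusted p = 0.00208) and *C1s2* (0.87 ± 0.13, SE, limma adjusted p = 0.000899), which encode the C1s protease partnered with C1r. *C2*, the other substrate of C1s, did not pass (0.15 ± 0.07). *Hc*, which encodes C5, was the terminal component that rose (0.78 ± 0.11, SE, limma adjusted p = 0.000767), *C8g* did not pass (0.33 ± 0.11, limma adjusted p = 0.059), and *C6*, *C7*, *C8a*, *C8b* and *C9* were not expressed.

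Of 7 other expressed inhibitors, 2 rose and 1 fell. *Clu*, clusterin, which holds the terminal complex in solution, rose by 0.90 ± 0.04 (SE, limma adjusted p = 3.66e-07) and *Cd59a*, which blocks the terminal complex on the membrane, by 0.63 ± 0.09 (SE, limma adjusted p = 0.000781). *Cr1l*, the membrane regulator Crry, fell by 0.20 on the log2 scale (limma adjusted p = 0.015). Of 7 expressed receptor genes, 3 passed and were higher. *C3ar1*, the receptor of C3a, had 0.31 ± 0.05, *C5ar1*, the receptor of C5a, was at least 1.28-fold higher but well above background on 1 of 4 APP_WT arrays, and *Itgb2*, a chain of complement receptor 3, had 0.32 ± 0.09. *Itgam*, the other chain (CD11b), had 0.11 ± 0.09 (limma adjusted p = 0.43). The calls of *C3ar1*, *Itgb2* and *Cr1l* were lost in a separate fit of these 4 arrays without a dye coefficient, with limma adjusted p of 0.0759, 0.167 and 0.179. That of *Itgb2* was also lost with the replicate block (adjusted p = 0.0661) and without replicate 2 (0.171) or 4 (0.146), and that of *Cr1l* without replicate 1 (0.0739) or 3 (0.0872).

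**Figure D2:**
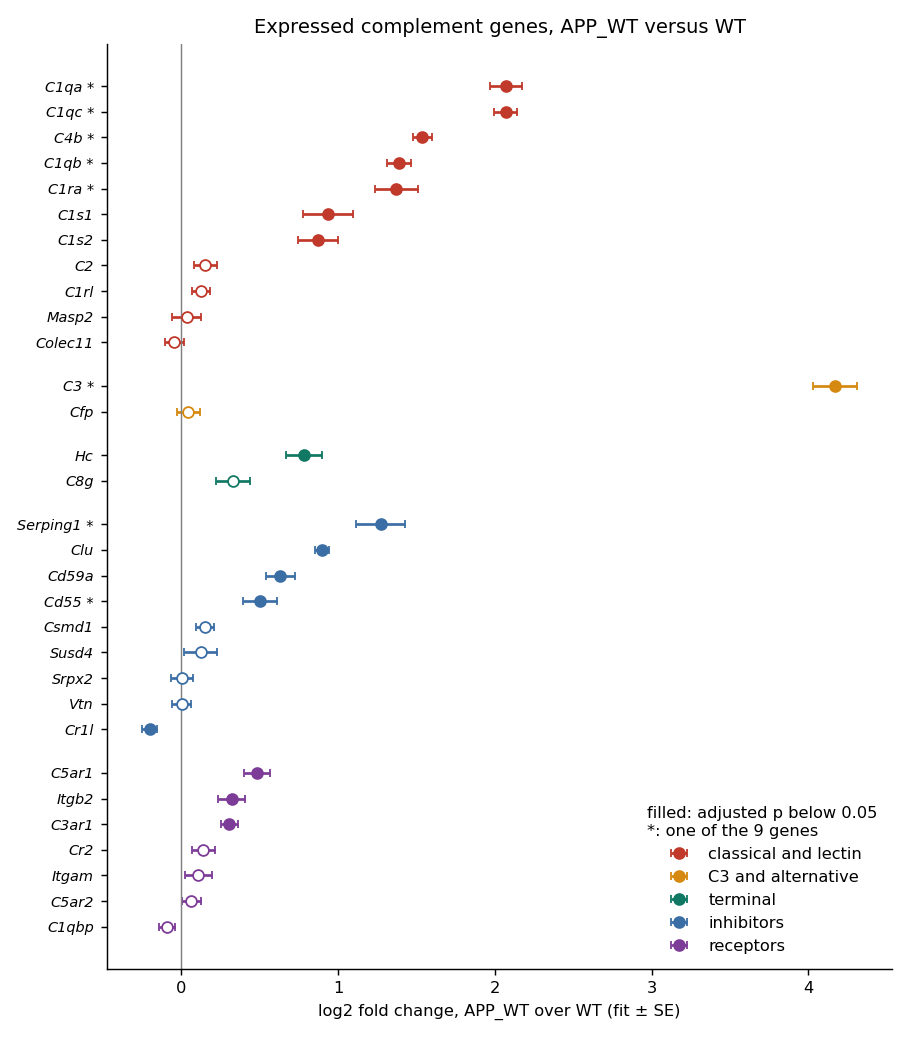
Log2 fold change of APP_WT over WT (fit ± SE, 4 arrays, 3 for *C1qa*) for the 31 expressed complement genes, ordered by role, with filled symbols for a limma adjusted p below 0.05 and an asterisk for the genes described here. *C3* stands at 4.17, the classical genes from *C1qa* to *C1s2* between 2.07 and 0.87, and *Cr1l* is the filled symbol below 0.

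Most microglial and astrocyte markers were also higher in APP_WT, while the other marker lists were mixed, little changed or lower. Of 14 microglial markers 11 were expressed, 8 of them were called higher and 1, *Sall1*, lower in APP_WT than in WT, with a median log2 fold change of 0.95. This median was 1.83 in the deposited log2 ratios, 1.89 with the processed signals and 0.43 over the 6 markers well above background in both channels on all arrays. *Cx3cr1* had 2.31, *Tyrobp* 2.22, *Aif1* 2.21, *Trem2* 1.60 and *Csf1r* 0.95, next to 2.07 for *C1qa* and *C1qc*. These were the higher markers of the list, with *Csf1r* at the median, whereas *Sall1* had -0.30. *P2ry12*, *P2ry13* and *Gpr34* were not expressed. The summed log2 signal of the 11 markers, in which the signals of *Siglech* and *Itgam*, 2 markers that did not pass, weigh most, was 14.7 to 15.1 in APP_WT and 14.5 to 14.9 in WT. All 9 astrocyte markers were expressed and 7 were called higher, with a median of 0.30 and a summed log2 signal of 17.1 to 17.2 in APP_WT and 16.6 to 16.9 in WT, with *Aqp4* at 0.73 and *Gfap* at 0.69. Of 8 markers of peripheral myeloid cells 1, *Itgal*, was expressed and it did not pass (0.10). Of 9 neuronal markers 2 were called higher and 2 lower, and of 6 pericyte and fibroblast markers 3 were called lower. Of 6 neural progenitor markers 2 were called higher and 2 lower. Of 7 oligodendrocyte lineage markers 1 was called lower, and of 4 expressed endothelial markers 1 was called higher. Over all expressed probes 11.6% were called higher and 18.5% in either direction. The part of cell composition in the complement differences was not tested.

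BK treatment called none of the complement genes. The probes of *Bdkrb2* and *Bdkrb1*, which encode the B2 and B1 kinin receptors, were well above background on 0 arrays in every condition. In BK_APP versus APP_WT, 0 of the 8 genes had a limma adjusted p below 0.05, as did 0 of all 29361 probes (0%, smallest adjusted p = 0.967). At an unadjusted p below 0.05 there were 2 of the 8, *C1qb* upward and *Cd55* downward, against 4.47% of all probes (2.1% upward and 2.36% downward). The log2 fold change was above 0 for 6 of the 8 genes, against 47.4% of all probes. The median of the 8 genes was 0.16, against -0.0046 for all probes. Without 1 replicate the median was 0.0567 (replicate 3) to 0.258 (replicate 4). The 23 other complement genes had 0 limma calls, 0 at an unadjusted p below 0.05 and a median of 0.03.

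*C1qb* had BK_APP ratios of 0.24, 0.07, 0.39 and 0.29, above 0 on all 4 arrays, as were 5.06% of all expressed probes. The fitted value was 0.25 ± 0.08 (SE, limma unadjusted p = 0.00889, adjusted p = 0.967). Ratios of *C1qa* were 0.07, 0.13, 0.43 and 0.02 (0.16 ± 0.08), also above 0 on all 4 arrays, and those of *C1qc* were 0.20, 0.29, 0.25 and -0.13 (0.15 ± 0.07). Their levels overlapped with APP_WT. The 95% intervals of the 3 chains were 0.08 to 0.42 for *C1qb*, -0.02 to 0.35 for *C1qa* and -0.01 to 0.32 for *C1qc*, on the log2 scale.

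*C3* had ratios of 0.33, 0.11, 0.65 and -0.12 in BK_APP (0.24 ± 0.14, 95% interval -0.06 to 0.55) and its other probe 0.20, 0.06, 0.66 and -0.13. Replicate 3 was the highest and replicate 4 the only one below 0 with both probes, and the value of the first probe was 0.0517 without replicate 3 and 0.437 without replicate 4. For *C4b* the ratios of -0.35, -0.26, 0.23 and 0.18 split by dye orientation (-0.05 ± 0.06), with both arrays that had BK_APP in Cy5 below 0, and the fitted value was 0.0319 with median centering in place of loess. *C1ra* (0.18 ± 0.14) and *Serping1* (0.15 ± 0.16) had ratios on both sides of 0, as had their other probes (0.09 ± 0.16 and 0.09 ± 0.09). The 95% intervals of the brightest probes of *C4b*, *C1ra* and *Serping1* lay within -0.19 to 0.50 on the log2 scale.

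*Cd55* had ratios of -0.14, -0.97, 0.07 and -0.11 (-0.29 ± 0.11, limma unadjusted p = 0.0235, adjusted p = 0.967). On replicate 2 the APP_WT channel read 9.09, where the APP_WT channel of the same replicate number read 7.39 on the array with WT and 7.54 on that with HOE_APP, and the BK_APP channel read 8.12 against 7.30 to 7.75 on the other 3 BK_APP arrays. The value without this array was -0.08. Without replicate 1 it was -0.49 with a limma adjusted p of 0.0482, the only call of the 8 genes in a treated comparison under any alternative, so that the negative value rested on replicate 2.

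HOE-140 treatment also called none of them. In HOE_APP versus APP_WT, 0 of the 8 genes and 0 of all probes passed (0%, smallest adjusted p = 0.898), and 2 of the 8, *C3* and *C4b*, had an unadjusted p below 0.05 and were lower, against 5.03% of all probes in either direction and 2.72% downward. All 8 fitted values were below 0, with a median of -0.13 against 0.00 for all probes, of which 50.1% were above 0. However, *C1qb*, *C1qc* and *Cd55* were above 0 with median centering in place of loess, and *C1qa*, *C1qb*, *C1qc*, *Cd55* and *Serping1* without replicate 4. The median was -0.24 without replicate 3 and 0.0048 without replicate 4. Of the 23 other complement genes 0 passed and 1, *Clu*, had an unadjusted p below 0.05 (-0.19 ± 0.04), with ratios of 0.05, 0.06, -0.39 and -0.49 that split by dye orientation.

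*C3* had HOE_APP ratios of -0.75, -0.55, -0.14 and -0.80, and its other probe -0.73, -0.61, -0.08 and -0.67, below 0 on all 4 arrays with both, as were 4.98% of all expressed probes. Replicate 3 was the closest to 0 with both. The fitted values were -0.56 ± 0.14 and -0.52 ± 0.14 (SE, limma unadjusted p = 0.00223 and 0.00333, adjusted p = 0.924 for both), with a 95% interval of -0.87 to -0.25 for the first. *C4b* was also below 0 on all 4 arrays, with -0.36, -0.43, -0.05 and -0.15 (-0.25 ± 0.06, limma unadjusted p = 0.00226, adjusted p = 0.924). Its ratios differed by dye orientation, with both arrays that had HOE_APP in Cy5 further below 0, and its value was -0.272 to -0.113 under the alternatives. In each case the levels overlapped with those of APP_WT.

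*C1ra* had HOE_APP ratios of -0.21, -0.12, 0.07 and -0.76 (-0.25 ± 0.14) and *Serping1* of -0.14, 0.12, 0.18 and -0.78 (-0.16 ± 0.16), with replicate 4 the lowest for both. The value of this *C1ra* probe was -0.462 without replicate 3 and -0.0479 without replicate 4. The other *C1ra* probe gave -0.05, -0.02, 0.16 and -0.63 (-0.14 ± 0.13). The other *Serping1* probe was below 0 on all 4 arrays, with -0.21, -0.08, -0.03 and -0.49 (-0.20 ± 0.09, limma unadjusted p = 0.0402, adjusted p = 0.924). The C1q chains varied around 0, with ratios of -0.32, -0.40, 0.38 and -0.06 for *C1qa*, of -0.38, -0.17, 0.51 and -0.0044 for *C1qb* and of -0.17, -0.09, 0.21 and -0.12 for *C1qc*. Replicate 3 was the highest for each chain. *Cd55* had -0.10 to 0.06.

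**Figure D3:**
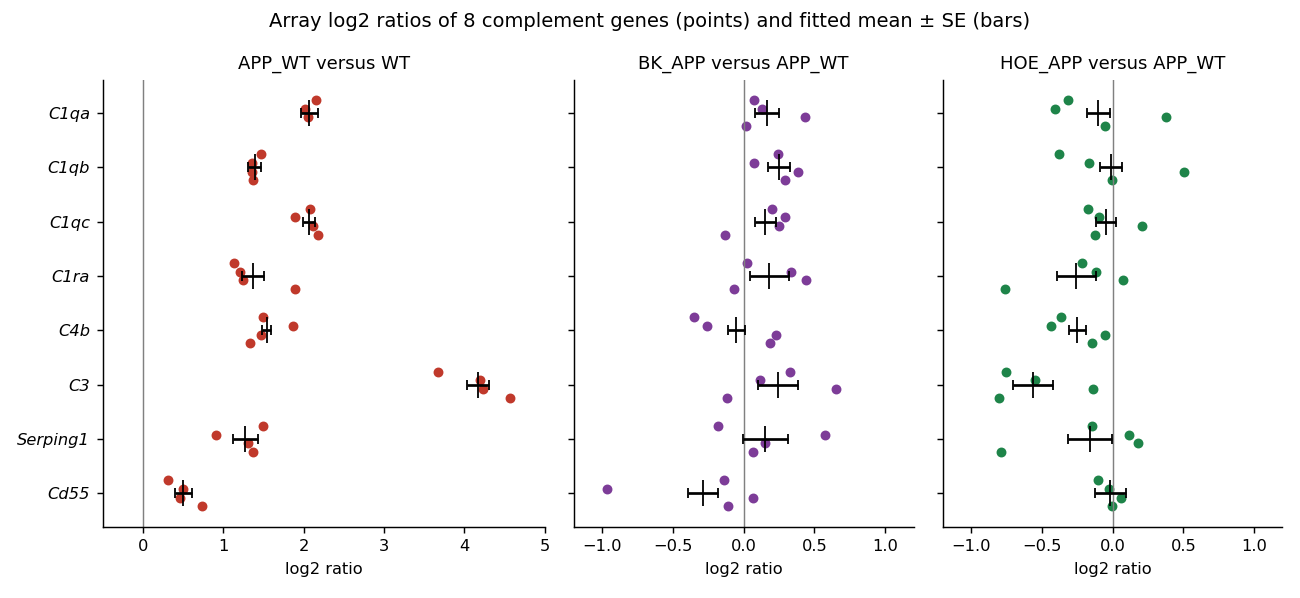
Log2 ratio on each array (points, replicate 1 at the top of each row to replicate 4) and fitted mean ± SE (black) for the 8 expressed complement genes in the 3 comparisons, on different horizontal scales. All ratios of APP_WT versus WT lie above 0, while those of the treated comparisons lie on both sides of 0 except for *C1qa* and *C1qb* in BK_APP and *C3* and *C4b* in HOE_APP.

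BK, an agonist of the B2 receptor, and HOE-140, its antagonist, were given at the same dose and times, and their difference was tested as 1 contrast per gene over all expressed probes. In BK_APP minus HOE_APP 0 of the 8 genes and 0 of all probes passed the limma adjusted threshold (0%), and 4 of the 8 (*C3*, *C1qb*, *C4b* and *C1ra*) had an unadjusted p below 0.05 and were higher in BK_APP, against 1.2% of all probes in that direction. This count was 1 (*C3*) without replicate 1, 2 without replicate 2 (*C3* and *C1qb*) or 4 (*C3* and *C1qa*), 5 without replicate 3, and 3 (*C3*, *C1qa* and *C1qb*) with the replicate block. It was 2 to 4 under the other alternatives that kept the sign of HOE_APP, and *C3* was counted in each of these settings. The difference was above 0 for 7 of the 8 genes, with a median of 0.26. Over all probes 48.6% were above 0, with a median of -0.0025. *C3* had the largest difference of the 14330 named genes, 0.80 ± 0.20 (SE, 95% interval 0.37 to 1.24, limma unadjusted p = 0.00201, adjusted p = 1.00), and its other probe had 0.72 ± 0.20 (unadjusted p = 0.00396).

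At replicates 1 to 4 the *C3* ratio of BK_APP was above that of HOE_APP by 1.08, 0.66, 0.79 and 0.68, and with the other probe by 0.93, 0.67, 0.74 and 0.54. All 4 differences were above 0, as they were for 8.44% of all expressed probes. The *C3* signal in BK_APP was 12.87, 13.08, 13.12 and 13.28 and that in HOE_APP 11.88, 12.46, 12.33 and 12.60, so that the 2 treatments did not overlap, which held for 1.96% of all expressed probes with BK_APP the higher. For *C1ra* the differences were 0.24, 0.45, 0.37 and 0.69 (0.44 ± 0.20), and the signals of 7.91 to 8.33 in BK_APP and 7.40 to 7.77 in HOE_APP did not overlap either. *C4b* (0.01, 0.17, 0.28 and 0.33) and *C1qa* (0.39, 0.53, 0.06 and 0.07) had 4 differences above 0 with overlapping signals. The brighter *Serping1* probe had differences of -0.03, 0.46, -0.03 and 0.85 (0.31 ± 0.22). Its other probe had 0.12, 0.30, 0.17 and 0.59 (0.30 ± 0.12, limma unadjusted p = 0.0359), also with overlapping signals. The BK_APP arrays lay in one row of the slide and the HOE_APP arrays in the other, so that row and treatment cannot be told apart in the signals. With the sign of HOE_APP turned, the difference of *C3* was -0.32 (adjusted p = 0.684) and the median of the 8 genes -0.04.

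**Figure D4:**
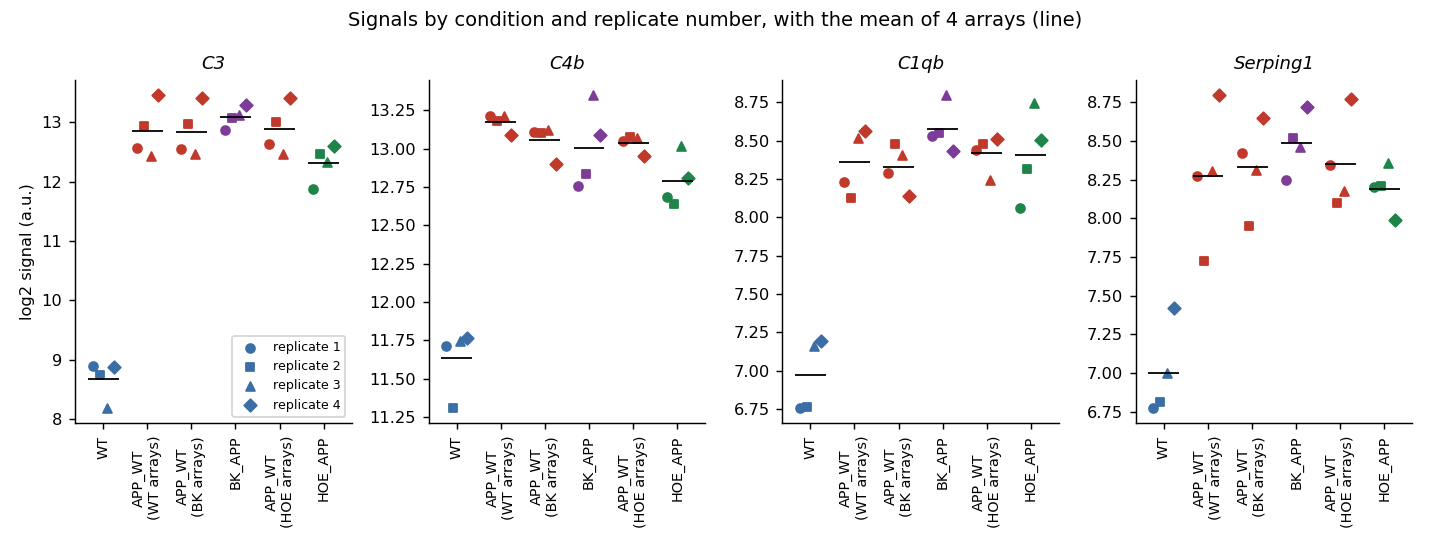
Log2 signal (arbitrary units, a separate scale for each gene) of *C3*, *C4b*, *C1qb* and *Serping1* by condition, with 1 symbol shape for each replicate number and a line at the mean. WT lies below all other conditions for each gene, and the *C3* points of BK_APP (12.87 to 13.28) lie above those of HOE_APP (11.88 to 12.60).

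Across the conditions the order of the *C3* means was WT (8.68 ± 0.33), HOE_APP (12.32 ± 0.31), APP_WT (12.84 ± 0.46, 12.84 ± 0.43 and 12.88 ± 0.42 on the arrays with WT, BK_APP and HOE_APP) and BK_APP (13.09 ± 0.17; SD, n = 4 each). HOE_APP and APP_WT overlapped, as did APP_WT and BK_APP, while WT lay apart from all others. For *C4b* the order was WT (11.63 ± 0.22), HOE_APP (12.79 ± 0.17), BK_APP (13.01 ± 0.27) and APP_WT (13.03 to 13.17), and only WT was separate. *C1qb* had 6.97 ± 0.24 in WT, 8.33 to 8.42 in APP_WT, 8.41 ± 0.29 in HOE_APP and 8.58 ± 0.15 in BK_APP, and *Serping1* had 7.00 ± 0.30, 8.28 to 8.35, 8.19 ± 0.15 and 8.49 ± 0.20 in the same conditions. The APP_WT signals of one replicate number were close between the 3 sets of arrays, as for *C3* with 12.56, 12.54 and 12.63 at replicate 1 and 13.45, 13.40 and 13.40 at replicate 4. The channel taken as HOE_APP read 11.88 and 12.60 at these replicates, further from the APP_WT signals of the other arrays. For *C3* the signals thus went with the direction taken for HOE_APP, which was not tested over all probes. Over all expressed probes the median absolute difference of APP_WT signals between the BK_APP and HOE_APP arrays was 0.0845 for the same number and 0.138 for the other number of the same dye.

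Microglial markers had small values in the treated neurospheres. Their median log2 fold change was 0.07 in BK_APP, with 0 called and 4 of 11 at an unadjusted p below 0.05, all upward. In HOE_APP it was -0.07 (0.0088 with median centering), with 0 called and 1 of 11 at an unadjusted p below 0.05. The difference of BK_APP and HOE_APP was above 0 for all 11 expressed markers (median 0.14, and -0.0071 with the sign of HOE_APP turned). Their summed log2 signal was 14.7 to 15.3 in BK_APP, 14.3 to 14.8 in HOE_APP and 14.5 to 15.4 in APP_WT on the same arrays. Astrocyte markers had medians of -0.05 in BK_APP, with 3 of 9 lower at an unadjusted p below 0.05, and of -0.09 in HOE_APP, with 2 of 9 lower. At that threshold 2.1% of all expressed probes were upward and 2.36% downward in BK_APP, and 2.72% downward in HOE_APP. Without a threshold 47.4% of all expressed probes were above 0 in BK_APP and 48.6% in BK_APP minus HOE_APP. The 9 neuronal markers were all below 0 in BK_APP (median -0.09) and in BK_APP minus HOE_APP (median -0.10), with 0 called and 1 of 9 at an unadjusted p below 0.05 in each. Their part in the complement values of the treated neurospheres was not tested.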

How the data were processed

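The authors deposited Agilent Feature Extraction 11.0.1.1 output (the version in the file headers) for 12 two-color SurePrint G3 Mouse arrays, with median signal and background intensity of each spot, log10 ratios of the processed signals, and a table of log2 ratios. The log10 ratios, per the file headers a red over green quotient, served only to find the direction of the log2 table. The methods describe 4 independent biological replicates per neurosphere model. Intensities were corrected in limma 3.58.1 (R 4.3.3) by normexp with an offset of 50 and normalized within arrays by loess (span 0.3). Control spots (3671 of 62976) were left out, uneven spots were set to missing and spots of a probe were averaged. With this offset, fold changes of dim probes come out smaller. RefSeq accessions were named through a RefSeq table of GRCm38.p6, which named 27509 of 29150 probes with an accession. The array design is of an older build, so its coordinates were not used. One limma model over 12 arrays had, per comparison, 1 coefficient for the mean and 1 for the dye (6 residual and 4.56 prior degrees of freedom). Tests were two-sided, adjusted by Benjamini-Hochberg over 29361 expressed probes, with a threshold of 0.05. A gene stood for its brightest expressed probe. Signals are log2 values of each channel after loess and quantile scaling of the mean intensities between arrays. The authors' SAM and rank product tests were not repeated. The model was tested on simulated data with independent errors and with effects set in APP_WT versus WT only. That test covers neither shared APP_WT samples nor effects in the treated comparisons.

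The members and gene lists were chosen with earlier results of these data known. Genes named are the 9 members with every probe, other complement genes that passed or were among the 10 with the largest difference, the 3 genes nearest to *C1qa*, *C3* and *Serping1*, and cell type markers, while *C2*, *Cfp* and *Prnp* were added after their values were seen. Deviations of BK_APP and HOE_APP arrays with the same replicate number correlated in all 4 pairs (r of 0.51 to 0.67, and 0.42 to 0.43 within a dye orientation). That APP_WT replicates were shared by number was taken from the design. Alternatives covered background correction, scaling, filter, dye, replicate block, left-out replicates and the deposited log2 ratios.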

Additional observations from a re-analysis of the deposited data

Results flagged for a closer look

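Among 34 sets of 4 arrays tested for a single distant array, 2 passed the 95% limit of Dixon's test, and chance flags about 1 in 20. For *C1qb* in APP_WT versus WT, replicate 1 had a log2 ratio of 1.473 against 1.36 to 1.37 on the others, a gap of 0.881 of the range. For *C1ra* in APP_WT versus WT, replicate 4 had 1.892 against 1.14 to 1.25, a gap of 0.852 of the range, and the other *C1ra* probe was also highest on that array (1.29).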

How the results depend on the processing

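The 117 values of the 8 genes in APP_WT versus WT under the alternatives kept their direction, and 116 stayed called, the exception being *Cd55* without replicate 4 (0.43). The count of called genes was 7 to 8 without 1 replicate, and 5 where probes had to be well above background in both channels on all arrays, which left 5 of the 8 genes. Over all probes the count of 5446 became 1834 in a separate fit without a dye coefficient, and was 3772 to 5550 without 1 replicate. With the replicate block 8 of the 8 genes and 4170 probes were called in APP_WT versus WT, 0 genes in the other comparisons, and of the called complement genes *Itgb2* lost its call (0.0661).

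In BK_APP the count of called genes was 0 to 1 without 1 replicate (*Cd55*, without replicate 1), and that of all probes 0 to 62. In HOE_APP 0 to 9 probes and in BK_APP minus HOE_APP 0 to 2 probes were called without 1 replicate, with 0 of the 8 genes in each. Changes of sign were seen only in values that were not called. With median centering these were *C4b* in BK_APP (0.0319) and, in HOE_APP, *C1qb* (0.0488), *C1qc* (0.039) and *Cd55* (0.018), and *Cd55* in HOE_APP was 0.07 in the deposited log2 ratios and 0.0538 with the processed signals. Without 1 replicate, *Serping1* in BK_APP was -0.0335 (replicate 2) to 0.341 (replicate 1). In HOE_APP the values without 1 replicate were -0.208 to 0.0094 for *C1qa*, -0.139 to 0.12 for *C1qb*, -0.129 to 0.0373 for *C1qc*, -0.0354 to 0.0034 for *Cd55* and -0.40 to 0.0835 for *Serping1*, lowest without replicate 3 (replicate 2 for *Cd55*) and highest without replicate 4 (replicate 1 for *Cd55*). With the sign of HOE_APP turned, BK_APP minus HOE_APP was -0.072 for *C1ra*, -0.316 for *C3*, -0.299 for *C4b* and -0.0044 for *Serping1*. The causes were not tested. The number of arrays and, for *Cfb*, *C1ra* and *C1qa* in WT, a signal near background limit these values.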
